A study of Homo sapiens with 42 samples.

Results

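The chromatin loops described here lie in the regions of chromosomes 22 and 9 that hold BCR, ABL1 and NUP214. A loop was taken when either of its anchors started between positions 22200000 and 23400000 of chromosome 22 (the BCR side) or between positions 130600000 and 131500000 of chromosome 9 (the ABL1 side, which also holds NUP214). This gave 29 of the 33914 loops in the deposited table, 17 on the BCR side and 12 on the ABL1 side. The rule used positions, not measured values. K562, an established human leukemia cell line labelled as wild type in genotype, was studied by in situ Hi-C, which ligates and sequences DNA ends that lie close together in fixed nuclei. All groups were K562 cells, fixed after 0 h, 6 h or 72 h of treatment with 25 nM PMA, a phorbol ester that drives them toward megakaryocytes, and the 0 h cells were the baseline. Each time had 4 biological replicates, each summed here over its technical replicates into 1 library. Neither the clonal state of the line nor separate cultures behind the replicates are stated in the labels, so p-values measure the spread between these samples.

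BCR encodes a protein with kinase and GTPase-activating domains, ABL1 a tyrosine kinase, and NUP214 a protein of the nuclear pore. K562 carries the Philadelphia translocation, which joins the first part of BCR to the later part of ABL1 and makes a constantly active kinase, and the fused segment is known to be amplified in this line. Chromatin loops commonly form where cohesin extrudes DNA until it meets CTCF bound at both anchors. Hi-C reads more contacts from a segment that is present in more copies, so copies of a segment and the strength of its loops cannot be told apart from counts alone. Copy number was not measured here. The table held 0 loops between chromosomes, so contacts from BCR to ABL1 across the fusion were not analysed here.

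On GRCh38, the build of the table, BCR lay on chromosome 22 from 23180509 to 23318037, ABL1 on chromosome 9 from 130713043 to 130887675, and NUP214 on chromosome 9 from 131125586 to 131234663. Anchors are 10 kb long, and the loops' 45 distinct anchors held 8 whole RefSeq promoter windows of 6 genes (each window 250 bases before to 50 bases after a start). The promoters of BCR, ABL1 and PLPP7 are shown because the most contacted loop starts at that of BCR, loop19804 encloses that of ABL1, and loop19810, which fell at both times, starts at that of PLPP7. The ABL1 window belongs to a start inside the gene, not to the gene's first position at 130713043, which loop19804 does not enclose. Capitals mark the GC box GGGCGG, searched on both strands.
BCR, chr22:23180259-23180558, plus strand: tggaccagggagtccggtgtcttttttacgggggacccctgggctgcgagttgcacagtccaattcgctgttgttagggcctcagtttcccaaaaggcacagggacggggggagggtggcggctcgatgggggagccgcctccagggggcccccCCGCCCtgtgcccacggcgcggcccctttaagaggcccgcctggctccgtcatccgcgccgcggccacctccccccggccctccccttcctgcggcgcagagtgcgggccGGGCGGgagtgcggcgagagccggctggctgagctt
ABL1, chr9:130835004-130835303, plus strand: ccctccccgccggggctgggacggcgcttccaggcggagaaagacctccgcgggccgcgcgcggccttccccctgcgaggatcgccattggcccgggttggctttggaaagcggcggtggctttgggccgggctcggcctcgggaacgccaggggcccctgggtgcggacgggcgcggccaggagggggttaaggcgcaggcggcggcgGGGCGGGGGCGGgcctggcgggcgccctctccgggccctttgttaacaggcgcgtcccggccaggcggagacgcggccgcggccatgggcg
PLPP7, chr9:131289473-131289772, plus strand: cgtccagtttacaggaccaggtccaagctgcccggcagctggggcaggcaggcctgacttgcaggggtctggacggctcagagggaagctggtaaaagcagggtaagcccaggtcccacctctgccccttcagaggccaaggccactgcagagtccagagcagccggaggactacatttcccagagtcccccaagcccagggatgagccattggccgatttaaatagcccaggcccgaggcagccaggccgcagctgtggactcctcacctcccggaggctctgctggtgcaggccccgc
The BCR promoter held 2 GC boxes, 1 on each strand, and 71.7% G and C. The ABL1 promoter held 2 next to each other, and 78.3% G and C. PLPP7 held 0, and 64.7% G and C. Of 35116 RefSeq promoter windows of this length, 45.0% held a GC box. The rest of each anchor, CTCF sites included, was not read, because no genome sequence was used here.

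The loops up to BCR were among the most contacted in the whole table. Loop32377 ranked 1st of all loops by mean raw count at 0 h, loop32376 ranked 2nd and loop32375 ranked 3rd. Loop32377 joins the BCR start (anchor chr22:23180001-23190000, which also holds the end of RSPH14) to a site inside BCR (chr22:23250001-23260000). Its raw counts at 0 h were 1578, 1085, 953 and 955 in replicates 1 to 4, a mean of 1206 ± 329 contacts (SD, n = 3). A chi-square test of the counts over loops found no difference between replicates 3 and 4 at 0 h (p = 0.0591) or 72 h (p = 0.489), and each of these pairs counts as 1 sample. Loop32376 joins a site in RSPH14, a radial spoke gene (chr22:23170001-23180000), to a second site inside BCR (chr22:23280001-23290000). Its raw counts at 0 h were 1465, 1062, 830 and 875. Loop32375 joins a site past the end of the locus of the immunoglobulin lambda light chain (chr22:22960001-22970000) to an end of GNAZ, which encodes a G protein subunit (chr22:23120001-23130000). Its raw counts at 0 h were 1173, 838, 637 and 750. Replicate 1 was highest for all 3 loops, and it was also the deepest library.

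Raw counts fall with loop length, so each count was divided, library by library, by the median count of loops elsewhere (outside both regions) whose length was within 10%. This strength ratio is 1 for a loop like its equals in length. Its median over the 17 loops of the BCR side at 0 h was 5.42 ± 0.93 (SD, n = 3), and over the 12 loops of the ABL1 side 2.63 ± 0.20 (SD, n = 3). These are descriptions, with no test, since both sets of loops were counted in the same libraries. The loops of a side were not alike: ratios ran from 0.493 to 17.9 on the BCR side and from 0.553 to 9.82 on the ABL1 side.

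**Figure D1:**
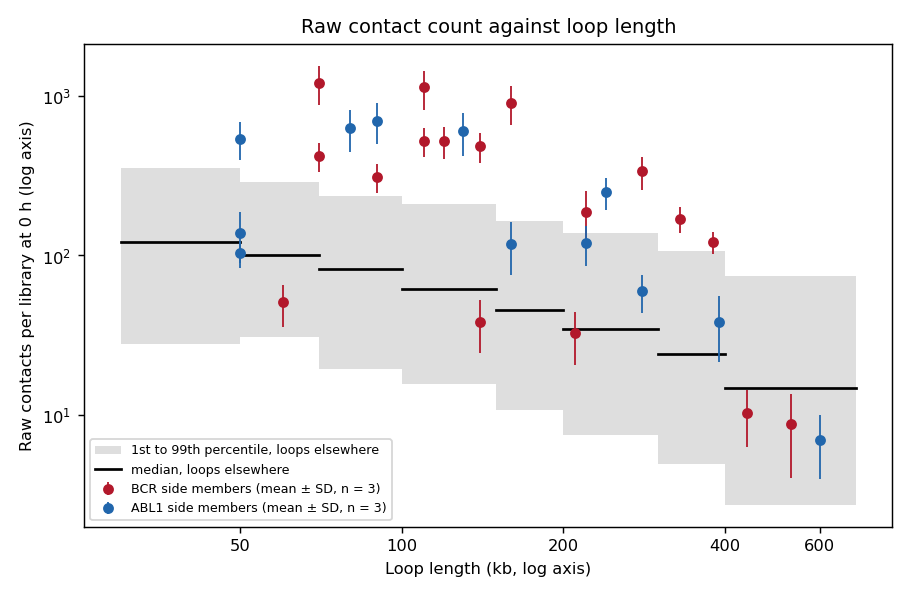
Mean raw contacts per library at 0 h (y axis, log scale) against loop length in kb (x axis, log scale) for the BCR side (red) and the ABL1 side (blue), with SD bars over 3 samples. Grey boxes span the 1st to 99th percentile of loops elsewhere in each length class and black lines their median; loop32377, at 1206 contacts, is far above its class, and the 5 loops beyond BCR lie under the medians.

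The BCR side split near the end of the gene. The 12 loops with anchors up to and inside BCR had strength ratios from 3.98 to 17.9, with a median of 7.81. Of these, 8 had more contacts at 0 h than every loop elsewhere of like length. The 5 loops that start beyond the BCR end, from position 23320001 on, had ratios from 0.493 to 0.764, all under 1. The last anchor of the strong loops inside BCR ended at 23290000 and the first anchor of the weak ones started at 23320001. No anchor lay between them. Where in this stretch, which holds the last part of BCR, the ratios change was therefore not seen. These divisions along the chromosomes were drawn after the values were seen.

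By strength ratio at 0 h, loop32375 (17.9 ± 0.76) came first, followed by loop32376 (16.1 ± 0.57), loop32377 (13.2 ± 0.41) and loop32372 (10.7 ± 0.22), each SD over n = 3. Loop32372 joins a site of the immunoglobulin lambda locus (chr22:22840001-22850000) to the same GNAZ anchor as loop32375. The libraries of neighbours in this order did not overlap from loop32375 down to loop19806 of the ABL1 side (9.82 ± 0.50, n = 3). From loop19806 down to loop32369 (3.98 ± 0.30, n = 3), the ranges of every neighbouring pair overlapped. Within each of the 4 libraries at 0 h, however, loop19806 was above loop19804, loop32370 above loop32367, loop32367 above loop32371 and loop19803 above loop32374. The other neighbours of this stretch changed order in 1 to 3 of the 4 libraries. A gap without overlap then parted loop32369 from loop19799 (2.95 ± 0.16, n = 3).

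On chromosome 9, the strong loops ran from inside ABL1 to just past the end of NUP214. Loop19806 runs from the later part of ABL1 (chr9:130860001-130870000) to a site next to LAMC3, a laminin gene (chr9:130990001-131000000). Loop19804 has both anchors inside ABL1 (chr9:130770001-130780000 and chr9:130860001-130870000) and a ratio of 8.86 ± 0.35 (SD, n = 3). Loop19805 runs from the same later anchor to an end of FIBCD1, a receptor for acetylated compounds, with a ratio of 7.10 ± 0.21 (SD, n = 3). Loop19803 joins the earlier part of ABL1 to an end of LAMC3 (6.85 ± 0.44, n = 3). Loop19809 joins the last part of NUP214 (chr9:131210001-131220000) to FAM78A, past the NUP214 end (4.92 ± 0.19, n = 3). Of these 5 loops, 4 had more contacts than every loop elsewhere of like length, and for loop19803 only 1 of 2170 had more.

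The other 7 loops of the ABL1 side had ratios of at most 2.95. Loop19799 lies before ABL1, between ASS1, an enzyme of arginine synthesis, and an end of PRDM12, a transcription regulator. Loop19801 joins FUBP3 to PRDM12 and had a ratio of 0.957 ± 0.10 (SD, n = 3). Loops that start before or inside the strong stretch and end farther past NUP214 than loop19809 were weaker. Loop19807 had 1.87 ± 0.047, loop19808, which starts inside NUP214, 2.31 ± 0.28, and loop19802, the longest at 600 kb, 0.553 ± 0.22 (SD, n = 3 each). Loop19802 starts in the first part of ABL1 (chr9:130720001-130730000), before the first anchor of the strong loops. It had only 10, 4, 9 and 5 contacts at 0 h. Beyond NUP214, loop19810 had 1.26 ± 0.12 and loop19811, which ends at RAPGEF1, an exchange factor for small GTPases, 1.72 ± 0.46 (SD, n = 3 each).

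**Figure D2:**
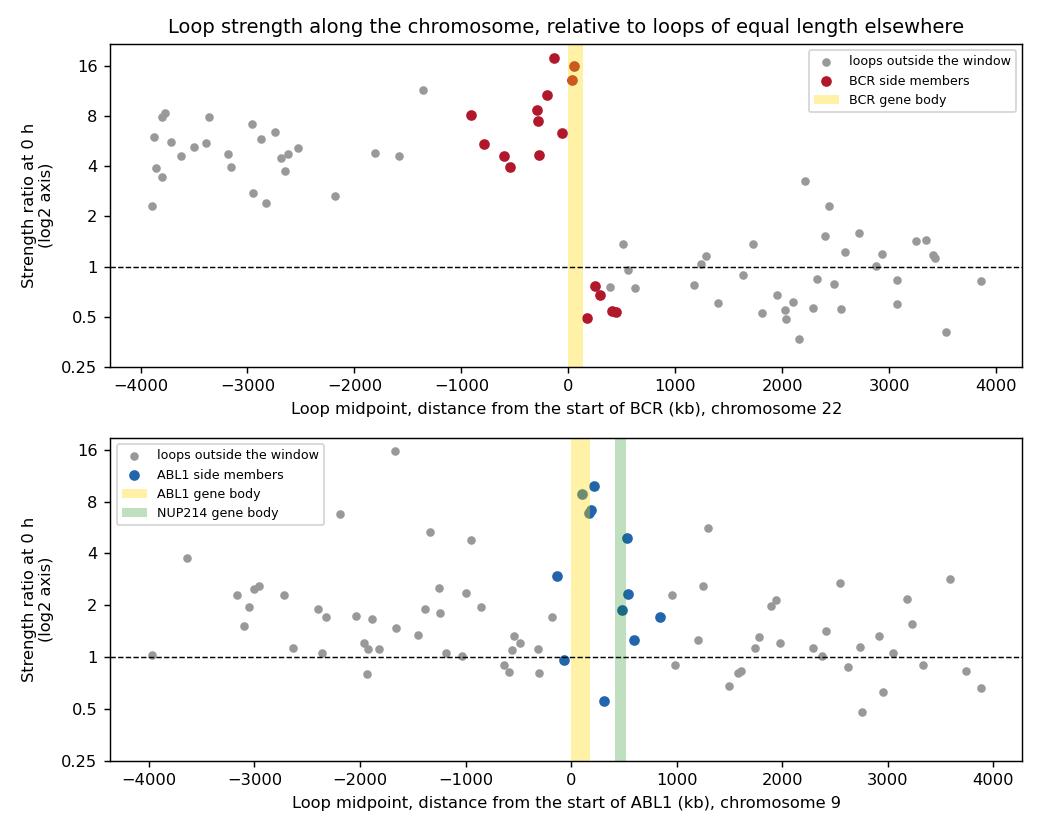
Strength ratio at 0 h (y axis, log2 scale) against the distance in kb of a loop's midpoint from the start of BCR (top, chromosome 22) or ABL1 (bottom, chromosome 9), with loops of the 2 regions coloured and others grey. On chromosome 22 every loop shown before BCR lies above 2 and the members past the gene lie between 0.493 and 0.764. On chromosome 9 the highest ratios of members sit over ABL1 or just past the end of ABL1 or NUP214. Loops far from these genes also reach high ratios.

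High ratios on chromosome 22 did not start at the edge of the region. All 25 loops that lie before it, from position 19000001 on, exceeded 2. They ran from 2.42 to 11.5 with a median of 4.83, whereas the median of the 357 loops of chromosome 22 outside the region was 0.983. In the 1 Mb after it, 6 loops had ratios from 0.748 to 1.37. The nearest loop outside at the start was loop32365 at 11.5 and the first inside was loop32366 at 5.42. At the end, loop32381 and loop32382, which start at the edge itself, had 0.675 and 0.533, and loop32383 just outside had 0.751. On chromosome 9 the 790 loops outside the region had a median of 0.978, and the highest reached 15.7. The 12 loops in the 1 Mb before had ratios from 0.813 to 4.76 with a median of 1.17. The 12 in the 1 Mb after had ratios from 0.683 to 5.6 with a median of 1.28. At the first edge, loop19799 just inside had 2.95 and loop19800 just outside 1.70, and at the other edge loop19811 had 1.72 and loop19812 outside 2.29.

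As a share of all contacts in the table, the BCR side took 0.558% ± 0.0051 at 0 h (SD, n = 3), with 0.0501% of the loops. Its share was 0.573% ± 0.016 at 6 h (n = 4) and 0.597% ± 0.016 at 72 h (n = 3). Every 72 h library (0.575% to 0.613%) lay above every 0 h library (0.553% to 0.564%). This is a sum that its loops did not share alike. In the edgeR fit described below, 8 of the 16 tested loops of this side had a log2 fold change above 0 at 72 h. The other 8 were below 0, and the median was 0.01. The ABL1 side took 0.284% ± 0.0073 at 0 h, 0.290% ± 0.0069 at 6 h and 0.271% ± 0.010 at 72 h. It holds 0.0354% of the loops. Its 72 h libraries (0.256% to 0.278%) overlapped those of 0 h (0.277% to 0.293%). These are shares of loop contacts, not of all contacts in the libraries, and they are given without a test.

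Libraries held between 736929 and 1472197 contacts, and 24132 loops had enough counts for the edgeR quasi-likelihood test over all 12 libraries. Of the 29 loops, 27 were tested, and loop19802 and loop32380 were not. A loop is said to have risen or fallen where the Benjamini-Hochberg adjusted p over all tested loops was under 0.05. Normalized contacts below are counts per 1000000 contacts in tested loops, after TMM scaling. The median standard error of a log2 fold change was 0.09 for these loops against 0.19 at 6 h and 0.18 at 72 h for all tested loops, so smaller changes could pass the test here.

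At 6 h, 5 of 27 loops changed against 0 h, 3 up and 2 down, beside 6.41% of all tested loops. All 5 were on the ABL1 side, where 11 were tested, and 0 of the 16 on the BCR side passed, 4 of which had an unadjusted p under 0.05 in edgeR. DESeq2 called 2 of the 27. Whether the sides differed was not tested. The median log2 fold change of the 27 was 0.03, and that of all tested loops 0.01. Without TMM scaling the split was 6 up and 2 down, and with an offset for loop length 4 up and 1 down. Within replicates 1 and 2 alone 1 loop was called, and within replicates 3 and 4 alone 2 were called. Leaving out 0 h replicate 1 left 2 calls, and leaving out 0 h replicate 3, 6 h replicate 2 or 6 h replicate 4 left 3 calls.

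At 72 h, 9 of 27 loops changed against 0 h, 3 up and 6 down, beside 33.6% of all tested loops, a share near that of all loops. The 3 that rose were on the BCR side, and 4 of the 6 that fell on the ABL1 side. The median log2 fold change was -0.02 for the 27 and 0.01 for all tested loops. With the offset for loop length the split was 5 up and 4 down. Within replicates 1 and 2 alone 4 loops were called. Between 6 h and 72 h, 7 of 27 changed, 3 up and 4 down, beside 20.5% of all tested loops; 4 were called without 72 h replicate 2, 4 within replicates 1 and 2 and 2 within replicates 3 and 4. Libraries of the times did not overlap for 6, 11 and 9 of the 27 at 6 h against 0 h, 72 h against 0 h and 72 h against 6 h, beside 10.7%, 28.3% and 19.8% of all tested loops.

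**Figure D3:**
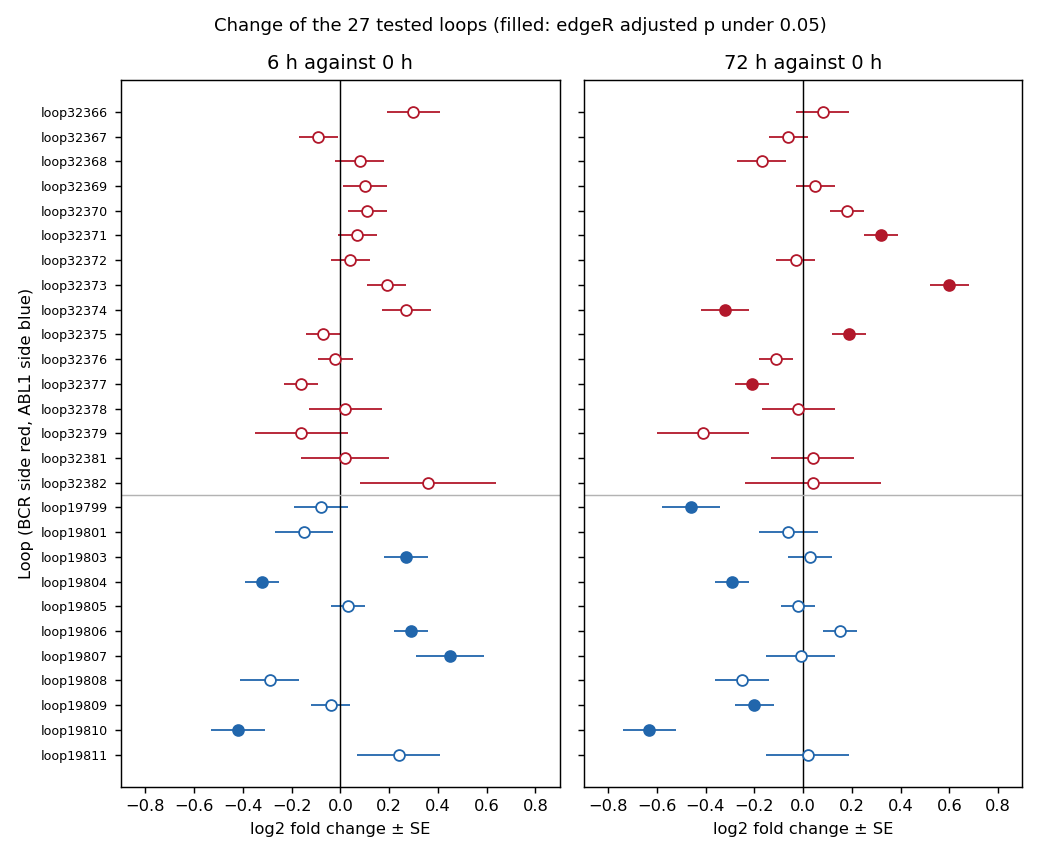
Log2 fold change with its standard error (x axis) for each of the 27 tested loops (y axis, in order along each chromosome) at 6 h (left) and 72 h (right) against 0 h, BCR side in red and ABL1 side in blue. Filled points passed the edgeR test: 5 at 6 h, all on the ABL1 side, and 9 at 72 h.

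Strong loops elsewhere mostly fell. Among 96 loops elsewhere with a mean of 200 or more counts, a limit set after the values were seen, 77 changed at 72 h (80.2%). Of these 2 rose (2.08%) and 75 fell (78.1%), and the median log2 fold change of the 96 was -0.32. Of the 14 members with that many counts, 3 rose and 3 fell at 72 h, with a median of 0.00. At 6 h, 0 rose and 23 fell of the 96 (24.0%; median -0.19; 56 had an unadjusted p under 0.05 in edgeR), against 2 and 1 of the 14 (median 0.04). From 6 h to 72 h, 20 of the 96 changed (20.8%), 1 up (1.04%) and 19 down (19.8%), against 3 up and 1 down of the 14. The difference between the sets was not tested, and they were not matched for length. The 14 members had strength ratios from 3.98 to 17.9 at 0 h. For each of the 14, the median 72 h log2 fold change of tested loops elsewhere of like length was between -0.19 and -0.02. Copy number was not measured for either set.

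The largest rise was that of a loop that starts in the immunoglobulin lambda locus and ends past it. Loop32373, whose anchors (chr22:22870001-22880000 and chr22:22940001-22950000) enclose IGLL5, a lambda-like light chain gene, and the microRNA gene MIR5571, had 366, 397, 409 and 388 normalized contacts in replicates 1 to 4 at 0 h, 417, 482, 425 and 452 at 6 h and 639.6, 608, 582 and 539 at 72 h. All 72 h libraries were above all others, and all 6 h libraries above all of 0 h. It rose 1.52-fold at 72 h (log2 fold change 0.60, SE 0.08, edgeR adjusted p = 2.8e-11) and also rose from 6 h to 72 h (log2 fold change 0.41, SE 0.08, edgeR adjusted p = 1.4e-05); at 6 h it did not pass (log2 fold change 0.19, SE 0.08, edgeR adjusted p = 0.13). It was the only member that the authors' deposited table classed as gained, with a deposited log2 fold change of 0.63 at 72 h. The other 28 were classed static. The deposited adjusted p over the time points was under 0.05 for 9 members, loop32373 among them, so the class static includes loops under that limit.

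Loop32371 runs from a site of the same locus (chr22:22840001-22850000) to a site past its end (chr22:22950001-22960000), and these flank loop32373. It had 455, 487, 507 and 491 normalized contacts at 0 h, 523, 501, 488 and 525 at 6 h and 662, 636, 555 and 565 at 72 h. The 72 h libraries lay above all others. It rose 1.25-fold at 72 h (log2 fold change 0.32, SE 0.07, edgeR adjusted p = 0.00024); this call was lost in replicates 3 and 4 alone. From 6 h to 72 h it also rose (log2 fold change 0.25, SE 0.07, edgeR adjusted p = 0.01), a call lost without 72 h replicate 1 or 2 (highest adjusted p 0.073), with no filter on low counts and in replicates 3 and 4 alone.

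Loop32375, which ends at GNAZ, had 849.5, 796, 799 and 853 normalized contacts at 0 h and 1020.0, 947, 936 and 869 at 72 h. All 72 h libraries lay above those of 0 h. It rose 1.14-fold (log2 fold change 0.19, SE 0.07, edgeR adjusted p = 0.02), a call lost when any of 5 libraries was left out (0 h replicates 2 and 3, 72 h replicates 1, 2 and 3; highest adjusted p 0.12), within replicates 1 and 2 or 3 and 4 alone, and when counts were taken relative to the BCR side. It was also lost with no filter on low counts (edgeR adjusted p = 0.22) and once replicates 3 and 4 of each time were added together (edgeR adjusted p = 0.053). Loop32370, which starts in the same locus and ends at the second anchor of loop32371, missed the threshold (log2 fold change 0.18, SE 0.07, edgeR adjusted p = 0.052).

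Both loops of the BCR side that fell end inside BCR. Loop32374 joins the second anchor of loop32371 to the site in BCR at chr22:23280001-23290000. It had 147, 159, 149 and 179.6 normalized contacts at 0 h, 176, 215, 197 and 179 at 6 h and 108, 139, 129 and 129 at 72 h. Every 72 h library was under every other library. It fell at 72 h against 0 h (log2 fold change -0.32, SE 0.10, edgeR adjusted p = 0.008). This call was lost without 72 h replicate 1 (edgeR adjusted p = 0.06) and within replicates 1 and 2 alone (edgeR adjusted p = 0.10). From 6 h to 72 h it also fell (log2 fold change -0.60, SE 0.10, edgeR adjusted p = 2.2e-06).

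Loop32377, at the BCR promoter shown above, had 1143, 1030.1, 1196 and 1086 normalized contacts at 0 h, 975, 932, 1022 and 1054 at 6 h and 975, 944, 981 and 954 at 72 h. The 72 h libraries lay under those of 0 h and overlapped those of 6 h. It fell at 72 h (log2 fold change -0.21, SE 0.07, edgeR adjusted p = 0.01), but not with the offset for loop length or within replicates 1 and 2 alone (edgeR adjusted p = 0.19). Loops elsewhere of its length had a median log2 fold change of -0.17. Loop32376, the other loop ending in BCR, did not pass at 72 h (log2 fold change -0.11, SE 0.07, edgeR adjusted p = 0.21), although its libraries at 72 h lay under those of 0 h. The 4 tested loops beyond BCR passed in no comparison, and their lowest edgeR adjusted p was 0.094, for loop32379 at 72 h.

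On the ABL1 side, loops that share the later ABL1 anchor moved in opposite directions at 6 h. Loop19804, within ABL1, had 661, 628, 644 and 598 normalized contacts at 0 h, 519, 503, 473 and 536 at 6 h and 536, 547, 539.7 and 449.9 at 72 h. It fell at 6 h (log2 fold change -0.32, SE 0.07, edgeR adjusted p = 0.0026) and at 72 h (log2 fold change -0.29, SE 0.07, edgeR adjusted p = 0.00086), and in both cases the libraries did not overlap. Loop19806 had 566, 554, 509 and 516 at 0 h, 678, 675, 645 and 629.7 at 6 h and 659.9, 625, 587 and 519.5 at 72 h. It rose at 6 h (log2 fold change 0.29, SE 0.07, edgeR adjusted p = 0.0064) and did not pass at 72 h (log2 fold change 0.15, SE 0.07, edgeR adjusted p = 0.097). At 72 h it did pass relative to its side (0.26, edgeR adjusted p = 0.0019), without TMM scaling (0.20, edgeR adjusted p = 0.011) and with the offset for loop length (0.20, edgeR adjusted p = 0.0099). It also passed with a replicate block (edgeR adjusted p = 0.033) and without 72 h replicate 4 (0.21, edgeR adjusted p = 0.037); without 72 h replicate 1 its value was 0.09. The calls of loop19804 and loop19806 at 6 h held without each library in turn and were lost within replicates 1 and 2 alone. The fall of loop19804 at 72 h was also lost within replicates 1 and 2 alone (edgeR adjusted p = 0.075). Loops elsewhere of its length had a median log2 fold change of -0.16 at 72 h, and those with a mean of 100 or more counts -0.25. With the offset for loop length its 72 h value was -0.21 (edgeR adjusted p = 0.0052). Loop19805, the third on this anchor, did not pass at 6 h (log2 fold change 0.03, SE 0.07, edgeR adjusted p = 0.88).

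**Figure D4:**
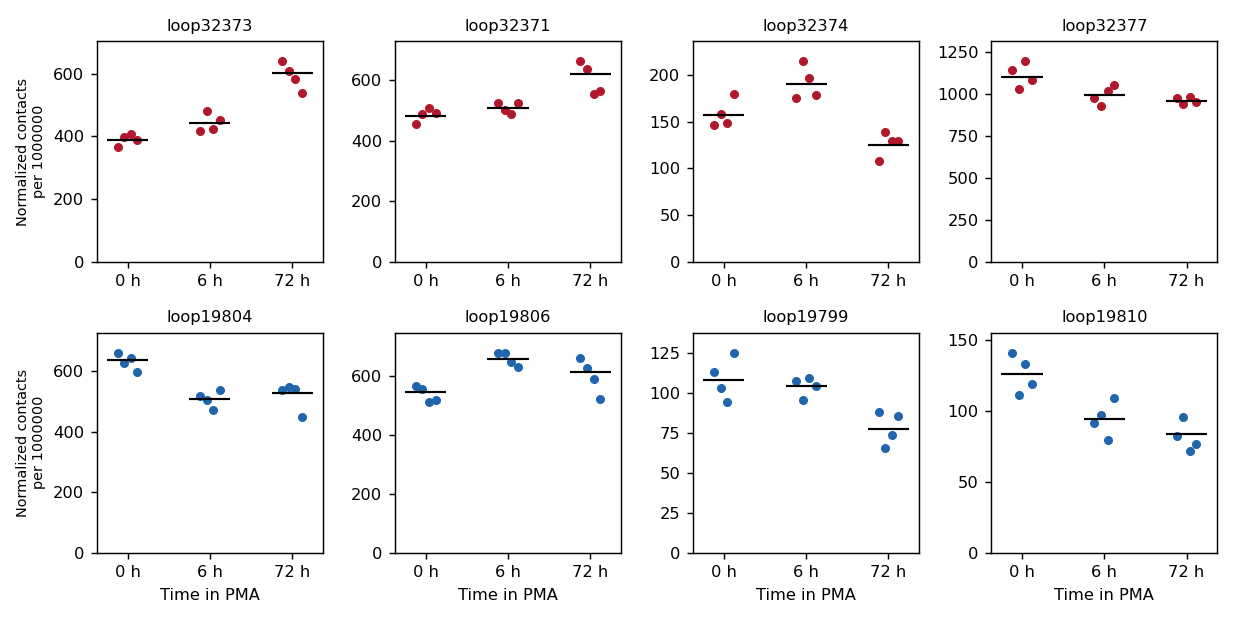
Normalized contacts per 1000000 (y axis, from 0) of 8 loops in each library at 0 h, 6 h and 72 h of PMA (x axis), points for replicates 1 to 4 from left to right and bars for the mean. Loop32373 rises from a mean of 387 to 603, and loop19804 and loop19806 move apart at 6 h.

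Loop19803, from ABL1 to LAMC3, had 225, 221, 239.6 and 241 normalized contacts at 0 h and 293, 289, 249 and 276 at 6 h. It rose at 6 h (log2 fold change 0.27, SE 0.09, edgeR adjusted p = 0.043), but the call was kept in only 2 of the 12 fits that leave out 1 library (highest adjusted p 0.15), and DESeq2 did not make it. It was also lost once replicates 3 and 4 of each time were added together (edgeR adjusted p = 0.066), within either pair of replicates and with no filter on low counts (edgeR adjusted p = 0.12). From 6 h to 72 h it fell (log2 fold change -0.24, SE 0.09, edgeR adjusted p = 0.034), a call lost without 6 h replicate 1 or 2 or 72 h replicate 1, 2 or 3. That fall was also lost relative to its side (-0.13, edgeR adjusted p = 0.31), with DESeq2 (adjusted p = 0.074) and within either pair of replicates. Loop19807, from LAMC3 past NUP214, had 55.8, 54.1, 51.4 and 54.6 at 0 h, 65.7, 74.8, 86.3 and 76.0 at 6 h and 55.7, 45.2, 49.9 and 62.5 at 72 h. Its 6 h libraries were all above the others. It rose at 6 h (log2 fold change 0.45, SE 0.14, edgeR adjusted p = 0.024) and fell from 6 h to 72 h (log2 fold change -0.47, SE 0.13, edgeR adjusted p = 0.0072); the rise was lost without 0 h replicate 1 or 3 or 6 h replicate 2, 3 or 4, with no filter on low counts, and with DESeq2, and both calls were lost within either pair of replicates.

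Loop19810 starts at the PLPP7 promoter and a FAM78A end (chr9:131280001-131290000). It had 141, 111, 133 and 119 normalized contacts at 0 h, 91.2, 97.2, 79.2 and 109 at 6 h and 82.3, 95.4, 71.8 and 76.8 at 72 h. Every library at 6 h and 72 h lay under those of 0 h. It fell at 6 h (log2 fold change -0.42, SE 0.11, edgeR adjusted p = 0.012), and at 72 h to 0.648 of its level (log2 fold change -0.63, SE 0.11, edgeR adjusted p = 3.1e-06). The call at 6 h was lost without 0 h replicate 1 (-0.35, edgeR adjusted p = 0.10), with the offset for loop length (-0.28, edgeR adjusted p = 0.12) and with DESeq2 (adjusted p = 0.058). It was also lost within replicates 1 and 2 (edgeR adjusted p = 0.11) and within replicates 3 and 4 (edgeR adjusted p = 0.21).

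Loop19799, before ABL1, had 113, 103, 94.1 and 125 normalized contacts at 0 h, 107, 95.3, 109 and 104 at 6 h and 87.6, 65.3, 73.8 and 85.7 at 72 h. Its 72 h libraries lay under all others. It fell at 72 h against 0 h (log2 fold change -0.46, SE 0.12, edgeR adjusted p = 0.00078) and against 6 h (log2 fold change -0.39, SE 0.12, edgeR adjusted p = 0.013); the latter was lost without 72 h replicate 2, relative to its side, with DESeq2 and within either pair of replicates. Loop19809, from NUP214 to FAM78A, had 498, 495, 449 and 513 at 0 h and 445, 446, 395 and 412 at 72 h. It fell at 72 h (log2 fold change -0.20, SE 0.08, edgeR adjusted p = 0.026), which was lost without 0 h replicate 4 or 72 h replicate 3 or 4, without TMM scaling and relative to its side. With the offset for loop length its value was -0.05 (edgeR adjusted p = 0.59), and loops elsewhere of its length had a median of -0.19. The call was lost once replicates 3 and 4 were added together at 72 h or at all times (edgeR adjusted p = 0.055 and 0.069) and within replicates 1 and 2 (edgeR adjusted p = 0.30). Loop19808, which starts in NUP214, did not pass at 72 h (log2 fold change -0.25, SE 0.11, edgeR adjusted p = 0.077). The largest differences among loops that did not pass were loop32382 at 6 h (log2 fold change 0.36, SE 0.28, edgeR adjusted p = 0.5) and loop32379 at 72 h (log2 fold change -0.41, SE 0.19, edgeR adjusted p = 0.094), which passed without 72 h replicate 1. Both had few counts. The lowest value of the BCR side at 6 h was that of loop32377 (log2 fold change -0.16, SE 0.07, edgeR adjusted p = 0.14), which passed with a replicate block or without 0 h replicate 2, and the highest of the ABL1 side from 6 h to 72 h that of loop19801 (log2 fold change 0.10, SE 0.12, edgeR adjusted p = 0.61), which turned to -0.10 within replicates 1 and 2 alone.

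Raw counts of loops with a common anchor can be divided within a library, where scaling between libraries drops out. Among tested members 15 pairs shared an anchor. Their ratios did not overlap between libraries for 5 pairs at 6 h against 0 h, 6 pairs at 72 h against 0 h and 5 pairs at 72 h against 6 h, beside 8.34%, 16.0% and 12.9% of 24483 pairs elsewhere. Among 4158 pairs elsewhere with means of 40 or more counts the shares were 10.8%, 20.3% and 16.3%. Pairs that use the same loop or anchor are not independent. All 5 pairs at 6 h against 0 h meet at chr9:130860001-130870000 or chr9:131330001-131340000. Many members had far more than 40 counts, so the shares elsewhere are not matched to them in counts. These ratios were added after the changes were known and are descriptions.

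The ratio of loop19804 to loop19806 was 1.17, 1.13, 1.26 and 1.16 at 0 h, 0.764, 0.745, 0.732 and 0.851 at 6 h and 0.812, 0.875, 0.920 and 0.866 at 72 h. All later libraries were under all of 0 h, so that loop19804 had more contacts than loop19806 before PMA and fewer after. The ratio of loop19807 to loop19808, which meet past NUP214 (chr9:131330001-131340000), was 0.464, 0.543, 0.482 and 0.593 at 0 h and 0.817, 1.01, 0.871 and 0.778 at 6 h, without overlap. At 72 h it was 0.594, 0.529, 0.522 and 0.778, overlapping 0 h. On the BCR side, the ratio of loop32371 to loop32374 was 3.09, 3.05, 3.39 and 2.73 at 0 h, 2.98, 2.33, 2.48 and 2.94 at 6 h and 6.13, 4.59, 4.31 and 4.37 at 72 h. Every 72 h library was above every earlier one, so that contacts of the common anchor with the near site outnumbered those with BCR by more at 72 h. The ratio of loop32371 to loop32372 was 1.5, 1.57, 1.57 and 1.63 at 0 h and 2.05, 2.30, 1.75 and 1.90 at 72 h, again without overlap.

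**Figure D5:**
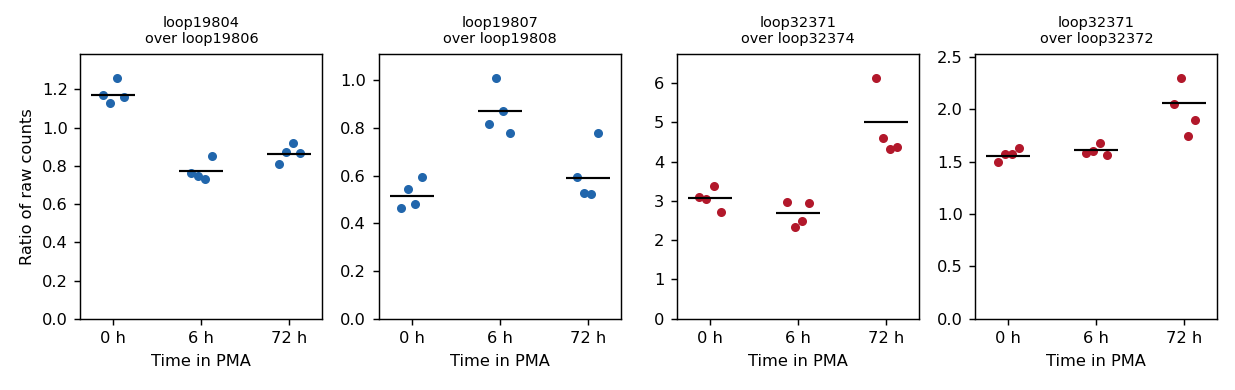
Ratio of raw counts (y axis, from 0) for 4 pairs of loops that share an anchor, in each library at 0 h, 6 h and 72 h of PMA (x axis), points for replicates 1 to 4 from left to right and bars for the mean. Loop19804 over loop19806 falls from a mean of 1.17 to 0.773 at 6 h, and loop32371 over loop32374 is highest at 72 h with a mean of 5.02.

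Loops at genes of the BCR-ABL1 signalling pathway lie outside these regions and were taken from a list of 27 genes for adaptors, kinases and survival factors, among others. Of these, 8 had a gene end in an anchor of a tested loop, 12 loops in all. At 6 h, 4 changed and all of them fell (median log2 fold change -0.19), beside 2.34% and 4.07% of all tested loops. At 72 h, 8 changed and 7 of these fell (median -0.39), beside 16.7% of all tested loops that rose and 16.9% that fell. From 6 h to 72 h, 2 changed and both fell, beside 10.7% and 9.81%; DESeq2 called 0, 5 and 1 of the 12 in these comparisons. At 72 h the loop at GAB2, an adaptor bound through GRB2, went from 91.2 ± 7.6 (SD, n = 3) to 51.0 ± 3.0 (SD, n = 3) normalized contacts (log2 fold change -0.85, SE 0.13, edgeR adjusted p = 2.3e-08). The loop at GRB2 itself went from 139.9 ± 6.0 (SD, n = 3) to 107 ± 8.6 (SD, n = 3) (log2 fold change -0.42, SE 0.11, edgeR adjusted p = 0.00089). The loop at CBL, a ubiquitin ligase for tyrosine kinases, also fell (log2 fold change -0.72, SE 0.21, edgeR adjusted p = 0.0042).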

How the data were processed

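In situ Hi-C of K562 cells at 0 h, 6 h and 72 h of PMA gave 42 samples. The authors deposited 1 table with raw contact counts per loop in 30 columns of technical replicates, per the file headers, and all were used. They also deposited log2 fold changes, adjusted p-values, a class and anchor positions, the other values of the table; positions are printed here counted from 1. Juicer 1.5.6, DESeq2 and the build hg38 are named in the submitters' processing notes, and the loop caller is not given in the sources used here. No background is subtracted from a count, so it holds local contacts besides the loop.

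Technical replicates were summed into 12 libraries of 736929 to 1472197 contacts. Loops kept by filterByExpr were tested by quasi-likelihood in edgeR 4.0.16 (R 4.3.3), in 1 model with no covariate after TMM scaling, with a prior count of 2 and p-values adjusted by Benjamini-Hochberg over all 24132 loops (threshold 0.05); the script was tested on simulated data. DESeq2 1.42.0, other scalings, filters, a loop length offset (loess span 0.3), batch terms, a replicate block and leaving out libraries were alternatives. A chi-square test over loops found no difference between replicates 3 and 4 at 0 h (chi-square per degree of freedom 1.014, p = 0.0591) or at 72 h (1.000, p = 0.489), and each pair counts as 1 sample in means and SDs. At 6 h the value was close to that at 0 h (1.016, chi-square p = 0.0327), and these replicates count separately. The fits keep both libraries at every time.

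The regions and gene list were chosen with earlier results of these data known. Named loops were those at an end of BCR, ABL1 or NUP214, the 3 highest of each side by count and by strength ratio (from 15 mean counts), those past the threshold and the largest rise and fall of each side and comparison. Gene names, promoters and microRNAs come from RefSeq tables of GRCh38.p14. 1 result of the gene list is not reported here.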

Additional observations from a re-analysis of the deposited data

Results flagged for a closer look

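For 7 loops the change at 72 h differed from the change at 6 h, tested directly as 72 h against 6 h (edgeR, Benjamini-Hochberg over all tested loops). The difference was 0.41 on the log2 scale for loop32373 (edgeR adjusted p = 1.4e-05), 0.25 for loop32371 (edgeR adjusted p = 0.01) and 0.26 for loop32375 (edgeR adjusted p = 0.0034), each higher at 72 h. It was -0.60 for loop32374 (edgeR adjusted p = 2.2e-06), -0.47 for loop19807 (edgeR adjusted p = 0.0072), -0.39 for loop19799 (edgeR adjusted p = 0.013) and -0.24 for loop19803 (edgeR adjusted p = 0.034), each lower at 72 h. Of these, loop32374, loop19803 and loop19807 had log2 fold changes above 0 at 6 h (0.27, 0.27 and 0.45) and -0.32, 0.03 and -0.01 at 72 h. No library stood apart by Dixon's criterion in the 29 groups of 4 examined.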

How the results depend on the processing

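At 6 h against 0 h, where 5 loops were called, the number was 8 without TMM scaling, 3 with no filter on low counts, 1 within replicates 1 and 2, 2 within replicates 3 and 4, 2 with DESeq2 (also 2 without its independent filtering, added after seeing the data), 2 at an adjusted p of 0.01 and 2 to 6 when 1 library was left out. At 72 h against 0 h, with 9 called, it was 4 within replicates 1 and 2 and 7 to 10 when 1 library was left out. At 72 h against 6 h, with 7 called, it was 4 within replicates 1 and 2, 2 within replicates 3 and 4, 4 at an adjusted p of 0.01 and 4 to 8 when 1 library was left out. The labels tie same-numbered replicates of different times by number alone. Their correlations over loops were low (0.015 to 0.124 over 12 pairs), but 11 of the 12 were highest with their own number. Same-numbered libraries thus had something in common, which the main fits did not model. With the replicate number as a block 9, 11 and 8 loops were called in these comparisons. Once replicates 3 and 4 of each time were added together they were 4, 7 and 7: loop19803 at 6 h and loop19809 and loop32375 at 72 h were lost. The calls of loop19799, loop19810 and loop32373 at 72 h against 0 h, and of loop32373 and loop32374 at 72 h against 6 h, held under all 25 settings. Among the loops and comparisons for which these settings were run, the sign turned for loop19801 at 72 h against 6 h, -0.10 within replicates 1 and 2.

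The strength ratio of the BCR side, 5.42, was 7.50 over loops with both anchors in the region and 6.52 in 6 h libraries. That of the ABL1 side, 2.63, was 2.99 against loops of chromosome 9, 2.95 over loops that passed the filter, 3.62 with both anchors inside and 2.05 in 72 h libraries. As shares of contacts in tested loops after TMM scaling, the BCR side held 0.591%, 0.594% and 0.619% at 0 h, 6 h and 72 h, and the ABL1 side 0.301% and 0.3% at 0 h and 6 h. With both anchors inside, the BCR side held 0.551% at 0 h, and the ABL1 side 0.271%, 0.276% and 0.261%. Loops with a gene of the signalling list within 10 kb gave 7, 14 and 6 calls of 36, and DESeq2 0, 5 and 1 of 12. The cause of these differences was not tested. Few counts limit the loops beyond BCR, and copy number, local background and contacts across the fusion were not measured.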
